A study of Homo sapiens with 4 samples.

Results

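The proteasome-named genes were all genes whose symbol in the deposited table of test results began with PSMA, PSMB, PSMC, PSMD, PSME, PSMF or PSMG followed by a number, and that had at least 1 transcript in the deposited table of estimated counts. This rule took 53 symbols, and 51 of them had counts, out of 15220 genes in all. The other symbols, PSMA8 and PSMB11, are not analysed here. The 51 genes held 108 transcripts, whose estimated counts were summed per gene and library. Of the 51 genes, 46 encode proteasome subunits, activators, an inhibitor or assembly chaperones, and 5 were taken by name alone, namely PSMC3IP, which encodes a protein of meiotic recombination, and the antisense genes PSMA3-AS1, PSMB8-AS1, PSMD6-AS2 and PSMG3-AS1. No measured value entered the rule. All 51 genes passed the filter on low counts, a minimum of 5 counts in 2 or more libraries.

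The proteasome is the barrel-shaped protease that degrades proteins marked with ubiquitin in the cytosol and nucleus. Its core particle consists of rings of alpha subunits, which gate the barrel, and rings of beta subunits, of which PSMB5, PSMB6 and PSMB7 cut peptide bonds. A regulatory particle of ATPases and non-ATPase subunits binds ubiquitinated proteins, unfolds them and feeds them into the core. Cells exposed to interferon gamma replace the catalytic subunits by PSMB8, PSMB9 and PSMB10 to form the immunoproteasome, whose peptides are loaded on MHC class I molecules.

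The study asked which genes change when the histone variant H2A.Z is depleted in pancreatic ductal adenocarcinoma cells. Polyadenylated RNA was sequenced from 2 libraries of PANC-1, an established human cell line of that cancer without any construct, and from 2 libraries of PZT-2, made from PANC-1. PZT-2 is 1 clone that stably carries lentiviral short hairpin RNAs against H2A.Z.1 and both isoforms of H2A.Z.2 and was selected with puromycin, so that knockdown, clone, vector and selection cannot be told apart. Libraries of a scrambled-hairpin line are not analysed here. The paper describes the libraries of each line as biological replicates.

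Depth was similar, at 12856547 and 15713289 recovered counts in the PANC-1 libraries (replicates 1 and 2, the order used throughout) and 13950884 and 14175917 in those of PZT-2. Replicates differed beyond sampling noise, with a chi-square of 6.23 per degree of freedom over genes between the PANC-1 libraries and of 3.52 between the PZT-2 libraries. Counts are given below as normalized counts, that is, scaled to the average effective size of the 4 libraries. The targeted genes were lower in PZT-2, as H2AFZ (H2A.Z.1) stood at 6388 and 6033 normalized counts in PANC-1 and at 2212 and 2257 in PZT-2, and H2AFV (H2A.Z.2) at 3343 and 3452 against 2589 and 2717. Of the epithelial markers, KRT8, KRT18 and KRT19 were high in every library, and the list of 6 summed to 7249 and 7224 TPM (transcript abundance scaled for length and depth) in PANC-1 and to 3817 and 3745 in PZT-2. The mesenchymal markers VIM and CDH2 summed to 6424 and 6368 TPM in PANC-1 and to 4594 and 4481 in PZT-2. KRT7 and EPCAM lay between 6.37 and 11.01 TPM and CDH1 between 0 and 3.90. None of the 4 acinar and 4 endocrine markers had counts. Of 4 leukocyte markers only CD68 did, at 114 to 122 TPM, while the fibroblast list summed to 3.14 to 11.6 TPM and the endothelial list to at most 0.24. The part of the lower epithelial and mesenchymal markers in the differences below was not tested, and in these bulk libraries fewer cells of a kind and less RNA per cell cannot be told apart.

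Levels were compared between genes in TPM, which are counts per length as the authors deposited them, summed here per gene. The library totals of these TPM were not equal, at 1000097 and 975806 in PANC-1 and 940619 and 943632 in PZT-2. The 46 genes of proteasome proteins summed to 12965 and 12865 TPM in PANC-1 and to 12260.4 and 12801 TPM in PZT-2, so that PZT-2 was lower in either library, with a log2 difference of the mean sums of -0.04. The same sum over all genes differed by -0.07, so no lower level of the proteasome genes can be read from it. The 14 genes of the core particle spanned 13.9-fold in mean TPM over the 4 libraries, from PSMA5, an alpha subunit, to PSMB1, a non-catalytic beta subunit. PSMA5 stood at 52.5 and 52.1 TPM in PANC-1 and at 53.9 and 59.6 in PZT-2, and PSMB1 at 765 and 746 against 743 and 771.

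The regulatory particle was less even, mostly through a single gene. PSMC4, which encodes 1 of the 6 ATPases, stood at 3023 and 2958 TPM in PANC-1 and at 2709 and 2812 TPM in PZT-2, which ranked it 32 among all genes by mean TPM. It alone held 23.3% and 23.0% of the summed TPM of the proteasome proteins in PANC-1 and 22.1% and 22.0% in PZT-2. The next gene of the regulatory particle, PSMD2, averaged 559 TPM, and the lowest, PSMD12, averaged 25.7. The 17 genes thus spanned 112-fold with PSMC4 and 21.7-fold without it. Of the other 5 ATPases, which are incorporated in equal number with PSMC4, PSMC3 averaged 284 TPM and PSMC6 43.3 TPM.

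Many of the genes around PSMC4 on chromosome 19 were high too, but not those directly beside it. Among its 20 tested neighbours, 10 on each side, 10 lay above 100 TPM (50% against 10.8% of all genes tested), and their median was 109 TPM, against 11.4 for all genes. This was the highest neighbour median of the 51 members. These neighbours included RPS16, a ribosomal protein gene with 26169 TPM and rank 1 of all genes, FBL, which encodes fibrillarin (5386 TPM, rank 9), the elongation factor gene SUPT5H (975 TPM), the kinase gene AKT2 (902 TPM) and TIMM50 (656 TPM). The nearest tested gene on either side of PSMC4 was low, FCGBP at 1.37 TPM and ZNF546 at 5.51 TPM. Whether the level of PSMC4 goes with that of its neighbourhood was not tested.

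In PZT-2, 16 of the 51 genes (31.4%) passed the test against PANC-1, the quasi-likelihood test of edgeR (Benjamini-Hochberg adjusted p under 0.05 over all 15100 genes tested), where 28.4% of all genes did. The proteasome genes therefore passed about as often as genes at large. Upregulated were 8 of 51, against a background of 14.7%, namely PSMA2, PSMA3, PSMA4, PSMD1, PSMD2, PSMD6, PSMD12 and PSME4. Downregulated were 8 as well, against a background of 13.7%, namely PSMB6, PSMC3, PSMD8, PSMD10, PSME1, PSME2, PSMA3-AS1 and PSMG3-AS1. The libraries of the cell lines did not overlap for 35 of the 51 genes, 15 with PZT-2 above and 20 with PZT-2 below PANC-1, where 66.3% of all genes did not overlap. The median log2 fold change was -0.04 over the 51 genes and 0.00 over all genes. The smallest p that an exact permutation test of 2 against 2 libraries allows is 0.333, so every call rests on the spread that edgeR estimates across genes. On the scale of log2(TPM + 1), limma called 3 of the genes higher and 9 lower. Without PZT-2 replicate 1 only PSMD2, PSMD6 and PSMD12 passed, and without PZT-2 replicate 2 only PSMD2, PSMD6 and PSMD10, when 16.4% and 13.5% of all genes did.

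**Figure D1:**
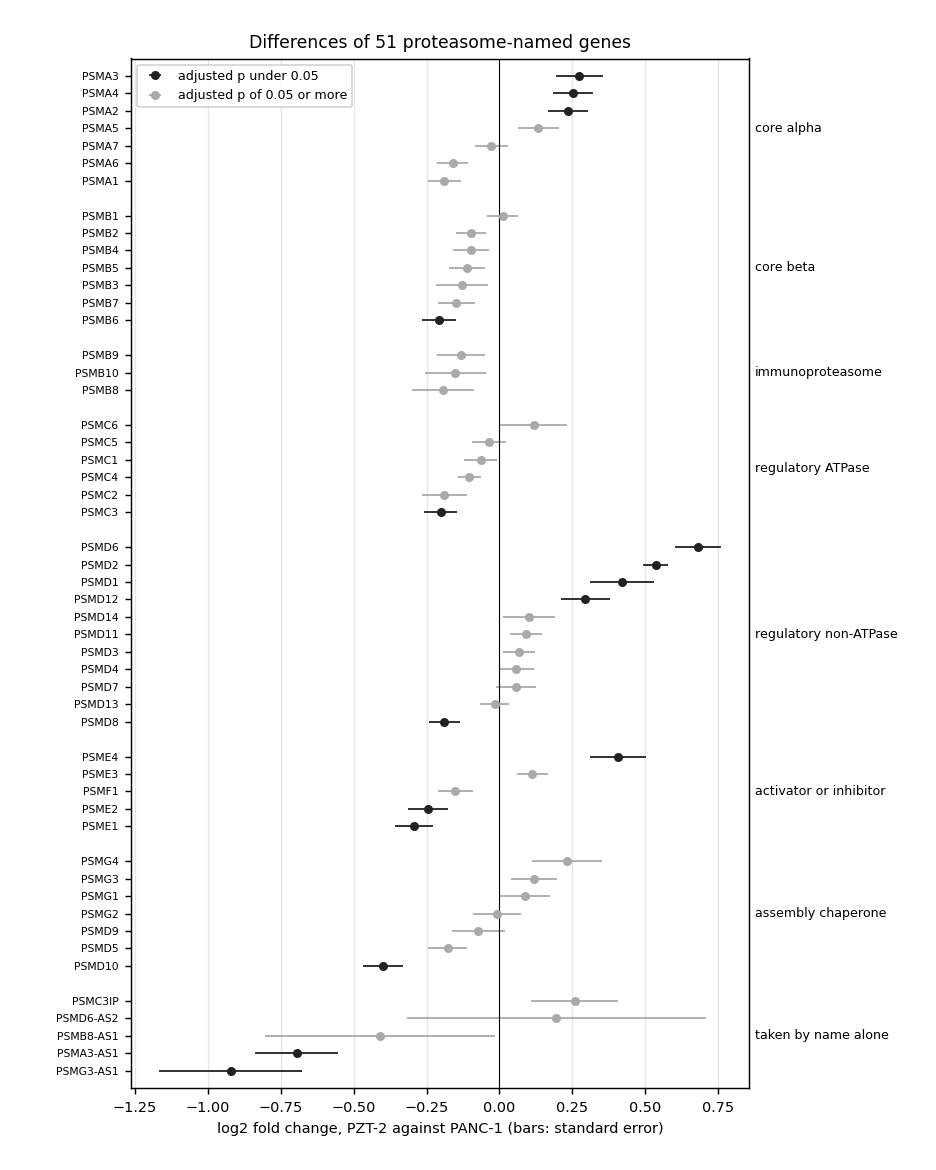
Log2 fold change of PZT-2 against PANC-1 for each of the 51 genes, by role and then by size, with bars of 1 standard error and black points for an adjusted p under 0.05. The non-ATPase subunits reach highest, up to 0.68, and the beta ring and immunoproteasome genes lie at or below 0.01.

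In the alpha ring 3 of the 7 genes were upregulated, where 14.7% of all genes were, and none fell past the threshold. These 3 passed in 8 to 10 of 16 alternative analyses. Over the whole core particle 28.6% of the 14 genes passed, about the 28.4% of all genes. PSMA2 had 2379 and 2609 normalized counts in PANC-1 and 2846 and 3032 in PZT-2, which gave a log2 difference of 0.24 ± 0.07 (SE, adjusted p = 0.0459). PSMA3 rose from 526 and 578 to 666 and 670 (0.27 ± 0.08, adjusted p = 0.0462). PSMA4 rose from 2520.02 and 2804 to 3151 and 3191 (0.25 ± 0.07, adjusted p = 0.0345). For each of these genes the lower PZT-2 value exceeded the higher PANC-1 value, where the libraries of 66.3% of all genes did not overlap. The alpha ring was split, since PSMA1 lay at 2726 and 2671 against 2423 and 2312 and missed the threshold narrowly (log2 fold change -0.19, adjusted p = 0.0506), as did PSMA6 (-0.16, adjusted p = 0.0693). PSMA5 and PSMA7 had log2 fold changes of 0.13 and -0.03. The summed TPM of the alpha ring was 1969 and 2021 in PANC-1 and 1989 and 2046 in PZT-2, which overlapped.

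The beta ring leaned the other way, with 6 of its 7 log2 fold changes below 0, where 7533 of all 15100 genes lay below 0. Only PSMB6 passed the test, where 28.4% of all genes passed and 13.7% were downregulated. PSMB6, the caspase-like catalytic subunit, fell from 2024 and 1980.3 normalized counts to 1712 and 1755 (log2 fold change -0.21 ± 0.06, adjusted p = 0.0374). PSMB5, the chymotrypsin-like subunit that proteasome inhibitors such as bortezomib bind, lay at 1802 and 1879.9 in PANC-1 and at 1665 and 1745 in PZT-2 (-0.11 ± 0.06, adjusted p = 0.230). PSMB7, the trypsin-like subunit, lay at 3238 and 3124 against 2751 and 2987 (-0.15 ± 0.06, adjusted p = 0.129). The libraries of all 3 catalytic genes were apart with PZT-2 below, though PSMB5 and PSMB7 did not pass and 66.3% of all genes were apart. The non-catalytic PSMB1, PSMB2, PSMB3 and PSMB4 had log2 fold changes between -0.13 and 0.01. Over the ring, summed TPM was 3074 and 2959 in PANC-1 and 2727 and 2899.5 in PZT-2, while the median log2 fold change was -0.11. These sums did not overlap, but their means differed by -0.10 in log2, beside -0.07 for the sum over all genes. The lack of overlap alone thus does not set the ring apart.

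None of the 3 immunoproteasome genes passed the edgeR test, none had an unadjusted p under 0.05 and DESeq2 called none. Of all 15100 genes tested, 28.4% passed with edgeR, 6128 had an unadjusted p under 0.05 and DESeq2 called 3224. PSMB8 had 810.4 and 699 normalized counts in PANC-1 and 610.1 and 707 in PZT-2 (a log2 change of -0.19 ± 0.11, adjusted p = 0.233), and its libraries overlapped. PSMB9 had 535 and 495 against 473 and 466 (-0.13 ± 0.08, adjusted p = 0.286). PSMB10 had 413 and 437 against 354 and 412 (-0.15 ± 0.10, adjusted p = 0.331). All 3 values lay below 0, beside the values of PSMB5, PSMB6 and PSMB7, which did so too.

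The balance between the catalytic sets overlapped between the lines, except for PSMB9, whose ratio was slightly above in PZT-2. In TPM, PSMB8 amounted to 0.472 and 0.393 of PSMB5 in PANC-1 and to 0.379 and 0.417 in PZT-2. PSMB9 amounted to 0.211 and 0.200 of PSMB6 against 0.221 and 0.212, and PSMB10 to 0.131 and 0.144 of PSMB7 against 0.132 and 0.142. Taken over the sums of 3 genes each, the ratio was 0.222 ± 0.008 in PANC-1 against 0.221 ± 0.006 in PZT-2 (SD, n = 2). The order of the ratios, with PSMB8 highest and PSMB10 lowest, held in each of the 4 libraries.

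**Figure D2:**
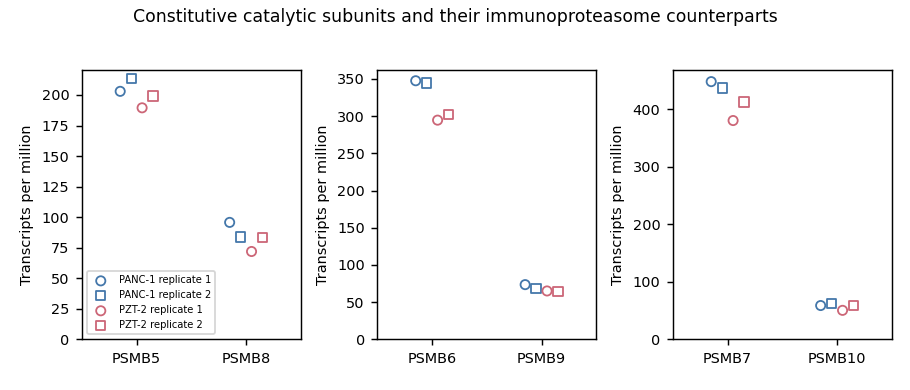
TPM of each constitutive catalytic subunit gene beside the immunoproteasome gene that replaces it, with 1 symbol per library (blue PANC-1, red PZT-2) on axes that start at 0. The immunoproteasome genes lie below their counterparts in every library, PSMB8 at 71.9 to 95.7 TPM.

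The activators PSME1 and PSME2, whose products form the cap that goes with the immunoproteasome and which interferon gamma induces, were downregulated. PSME1 had 1684 and 1553 normalized counts in PANC-1 and 1325 and 1316 in PZT-2 (a log2 change of -0.29 ± 0.07, adjusted p = 0.0194). PSME2 had 2357 and 2261 against 1856 and 2038 (-0.25 ± 0.07, adjusted p = 0.0385). No PZT-2 value of either gene reached those of PANC-1, where the libraries of 66.3% of all genes did not overlap. The ratio of PSME1 to PSME2 in TPM was 0.541 ± 0.015 in PANC-1 against 0.525 ± 0.036 in PZT-2 (SD, n = 2). The genes lie near each other on chromosome 14.

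PSME4, which encodes the large activator that acts on acetylated histones, moved up. It had 1218 and 1428 normalized counts in PANC-1 and 1849 and 1662 in PZT-2 (a log2 change of 0.41 ± 0.10, adjusted p = 0.0223). PSME3, the nuclear activator, and PSMF1, the inhibitor, did not pass, with log2 fold changes of 0.11 and -0.15. The libraries of all 5 genes in this group were apart, 2 with PZT-2 above and 3 with PZT-2 below, where 66.3% of all genes were apart. Their summed TPM was 797 and 773 in PANC-1 and 670.4 and 697 in PZT-2, a log2 difference of the means of -0.20 beside -0.07 over all genes.

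The promoters of PSMB8, PSMB10, PSME1 and PSME2 are shown because interferon induces these genes through elements near their start, and because the immunoproteasome genes and their activators differed in whether they passed. The sequences are 250 bases before to 50 bases after the start of the gene, from RefSeq on GRCh38.p14, read along the strand of the gene. Capitals mark the core of the interferon-stimulated response element (ISRE, AAANNGAAA), of the gamma-activated site (GAS, TTCNNNGAA) and of the antioxidant response element (ARE, TGACNNNGC), each searched on both strands. The GAS core reads the same on both strands, and no marked core overlaps another in these 4 sequences. They lie at chr6:32843998-32844297 (PSMB8, minus strand), chr16:67936801-67937100 (PSMB10, minus strand), chr14:24135944-24136243 (PSME1, plus strand) and chr14:24146561-24146860 (PSME2, minus strand).
PSMB8: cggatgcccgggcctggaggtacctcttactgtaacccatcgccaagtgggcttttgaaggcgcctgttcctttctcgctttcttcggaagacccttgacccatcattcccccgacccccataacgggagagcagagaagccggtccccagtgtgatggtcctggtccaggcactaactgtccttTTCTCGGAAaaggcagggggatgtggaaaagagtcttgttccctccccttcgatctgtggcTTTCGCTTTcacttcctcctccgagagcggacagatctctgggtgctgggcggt
PSMB10: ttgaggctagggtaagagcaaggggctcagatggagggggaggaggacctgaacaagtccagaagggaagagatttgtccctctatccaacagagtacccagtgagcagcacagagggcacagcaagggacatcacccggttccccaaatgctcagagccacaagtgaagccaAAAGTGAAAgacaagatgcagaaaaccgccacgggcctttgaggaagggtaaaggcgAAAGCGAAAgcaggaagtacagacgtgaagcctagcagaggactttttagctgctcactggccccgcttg
PSME1: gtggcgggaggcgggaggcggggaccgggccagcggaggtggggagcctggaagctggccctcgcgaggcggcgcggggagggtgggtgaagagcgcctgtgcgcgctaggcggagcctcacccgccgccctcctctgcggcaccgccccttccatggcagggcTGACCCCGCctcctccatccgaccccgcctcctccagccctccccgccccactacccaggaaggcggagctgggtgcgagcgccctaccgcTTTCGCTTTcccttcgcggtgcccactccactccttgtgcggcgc
PSME2: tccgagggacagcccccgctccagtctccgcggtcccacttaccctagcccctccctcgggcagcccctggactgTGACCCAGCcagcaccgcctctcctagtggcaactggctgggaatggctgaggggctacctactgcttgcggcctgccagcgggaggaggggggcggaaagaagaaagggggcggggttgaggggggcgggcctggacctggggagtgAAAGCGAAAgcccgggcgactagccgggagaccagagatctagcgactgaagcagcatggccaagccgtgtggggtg
The ISRE core begins 4 bases before the start of PSMB8, 77 and 20 bases before that of PSMB10, 5 bases after that of PSME1 and 27 bases before that of PSME2. PSMB8 also holds a GAS core 65 bases before its start, while PSME1 and PSME2 hold an ARE core 86 and 175 bases before theirs. A second listed PSMB8 promoter and that of PSMB9 hold no ISRE core.

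Over all members, 45 genes had 55 promoters in the RefSeq table. The ISRE core was in 9 of the 55 (16.4%) and in 10.5% of all 35116 promoters of that length, and the GAS core in 8 (14.5%) against 7.66%. Both counts hold the same site under PSMB8 and again under PSMB8-AS1, whose promoters overlap on opposite strands. The ARE core, which is read by the transcription factors NFE2L1 and NFE2L2, was in 16 (29.1%) against 13.3% of all promoters. A higher share was not particular to it. The ETS core (CCGGAAG) was in 30.9% against 10.3%, the GC box (GGGCGG) in 70.9% against 45.0% and the CCAAT box in 40% against 34.6%. The ARE core was in 4 of 11 promoters of upregulated members, 3 of 7 of downregulated members and 9 of 37 of members that did not pass. Such a match is a description of the letters alone. PSMD12 and PSME4, both upregulated, are shown as examples with 1 ARE core each, at chr17:67366528-67366827 and chr2:53970944-53971243, both on the minus strand. The core begins 165 bases before the start of PSMD12 and 34 bases before that of PSME4.
PSMD12: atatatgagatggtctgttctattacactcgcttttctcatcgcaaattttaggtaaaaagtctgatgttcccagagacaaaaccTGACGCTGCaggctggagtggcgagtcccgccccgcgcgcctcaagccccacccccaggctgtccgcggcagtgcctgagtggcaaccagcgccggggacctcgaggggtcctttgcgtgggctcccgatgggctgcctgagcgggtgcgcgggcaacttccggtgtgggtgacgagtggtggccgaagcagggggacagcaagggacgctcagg
PSME4: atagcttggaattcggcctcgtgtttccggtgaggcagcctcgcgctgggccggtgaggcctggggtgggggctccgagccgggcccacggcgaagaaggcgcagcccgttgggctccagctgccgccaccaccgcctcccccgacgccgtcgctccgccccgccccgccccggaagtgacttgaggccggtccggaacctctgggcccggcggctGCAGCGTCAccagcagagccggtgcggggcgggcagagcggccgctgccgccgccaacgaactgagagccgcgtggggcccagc

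The strongest changes of the proteasome proteins were in the non-ATPase subunits of the regulatory particle. Of these, 4 of 11 were upregulated and 1 was downregulated, where 14.7% and 13.7% of all genes were. PSMD2, a scaffold subunit on which shuttle factors dock, had 10823 and 10883 normalized counts in PANC-1 and 15573 and 15885 in PZT-2. That was a 1.45-fold rise (log2 fold change 0.54 ± 0.04, adjusted p = 5.65e-04). PSMD6, a subunit of the lid, rose 1.60-fold from 612 and 682 to 1053 and 1026 (0.68 ± 0.08, adjusted p = 0.00187). PZT-2 libraries lay well above those of PANC-1 for both, and both passed in each of 16 alternative analyses.

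PSMD1, the other large scaffold of the base, had 2191 and 2778 normalized counts in PANC-1 and 3273 and 3388 in PZT-2 (a log2 change of 0.42 ± 0.11, adjusted p = 0.0307), with a wide gap between the PANC-1 replicates. The lid gene PSMD12 had 774 and 832 against 927 and 1045 (0.29 ± 0.08, adjusted p = 0.0428). PSMD8, another lid gene, went down from 6311 and 5991 to 5296 and 5497 (-0.19 ± 0.05, adjusted p = 0.0417). The ubiquitin receptor gene PSMD4, the deubiquitinase gene PSMD14 and its partner PSMD7 did not pass, with log2 fold changes of 0.06, 0.10 and 0.06, and neither did PSMD3 (0.07), PSMD11 (0.09) or PSMD13 (-0.02). Summed TPM of the 11 genes was 2497 and 2534 in PANC-1 and 2694 and 2804 in PZT-2.

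Among the 6 ATPase genes PSMC3 alone passed (16.7%, against 28.4% of all genes). It fell from 3733 and 3509 normalized counts to 3132 and 3167 (log2 fold change -0.20 ± 0.06, adjusted p = 0.0414). PSMC4 lay at 43208 and 41996 against 38868 and 40431 (-0.10 ± 0.04, adjusted p = 0.101), with its libraries apart. PSMC1, PSMC2, PSMC5 and PSMC6 had log2 fold changes of -0.06, -0.19, -0.04 and 0.12. Summed TPM of the ATPases was 3881 and 3834 in PANC-1 and 3503 and 3614 in PZT-2, with PZT-2 below, whereas for the non-ATPases it lay above. The log2 differences of the mean sums were -0.12 and 0.13, beside -0.07 over all genes. The whole regulatory particle summed to 6377 and 6368 TPM against 6198 and 6418, which overlapped.

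Of the 7 assembly chaperones only PSMD10 passed, where 28.4% of all genes passed and 13.7% were downregulated. PSMD10, known as gankyrin, an oncoprotein that also helps to build the regulatory particle, had 1153 and 1234 normalized counts in PANC-1 and 885 and 924 in PZT-2, a fall of 1.32-fold (log2 fold change -0.40 ± 0.07, adjusted p = 0.00743). It passed in 15 of 16 alternative analyses, with the highest adjusted p at 0.0551. PSMD5 and PSMD9, which also act on the base, had log2 fold changes of -0.18 and -0.07. The alpha ring chaperones PSMG1, PSMG2, PSMG3 and PSMG4 lay between -0.01 and 0.23.

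**Figure D3:**
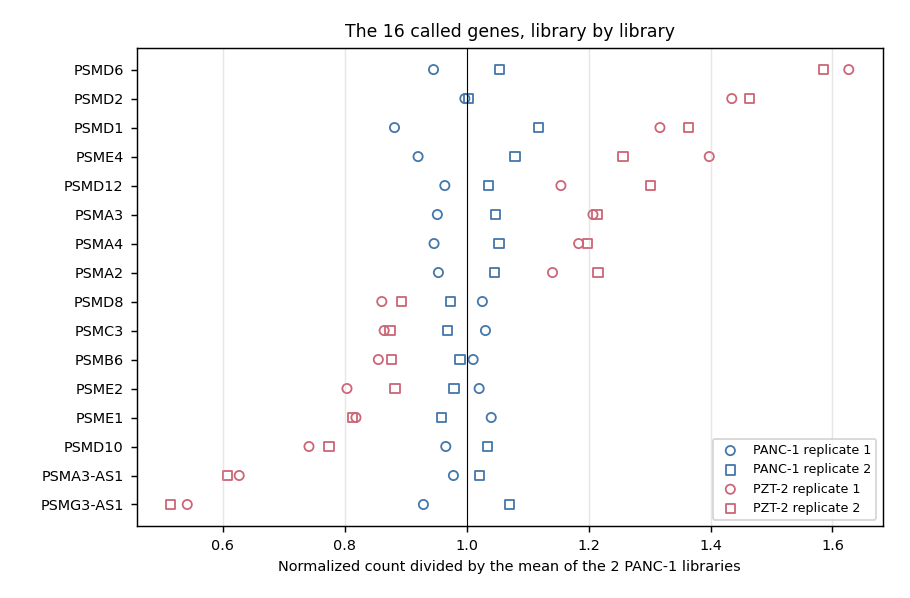
Normalized count of each of the 16 genes that passed, divided by the mean of the 2 PANC-1 libraries, for every library (circles replicate 1, squares replicate 2, blue PANC-1, red PZT-2). The lines do not overlap for any of the 16 genes, which were selected by the test on these same libraries. Of all genes 66.3% do not overlap. PSMD1 has the widest gap between PANC-1 replicates relative to their mean.

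The antisense genes were low, and 2 of the 4, PSMA3-AS1 and PSMG3-AS1, passed, where 28.4% of all genes did. PSMA3-AS1 had 135 and 141 normalized counts in PANC-1 and 87 and 84 in PZT-2 (a log2 change of -0.69 ± 0.14, adjusted p = 0.0138), in the opposite direction to PSMA3. The library kit keeps the strand, but whether strand was used in the counting is not given in the sources used here, so reads of PSMA3 and its antisense partner may not have been told apart. PSMG3-AS1 had 52 and 60 against 30 and 29 (-0.92 ± 0.25, adjusted p = 0.0339). That fall lay in 1 of its 2 transcripts, NR_027328, with 25 and 33 normalized counts in PANC-1 and 0 in both PZT-2 libraries, whereas NR_021487 had 27 in both PANC-1 libraries and 30.1 and 29 in PZT-2. Analysed by its most abundant transcript alone, PSMG3-AS1 had a value of 0.12 on the log2 scale. PSMD6-AS2, on chromosome 3 like PSMD6, had 6 to 8 normalized counts in each library, PSMB8-AS1 had 13 to 24 and PSMC3IP 119 to 164, and none of the 3 passed.

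Tested transcript by transcript, none of the 107 tested transcripts of these genes passed with edgeR, where 45 of 30301 transcripts (0.149%) did. Of the 107, 20 had an unadjusted p under 0.05, and DESeq2 called 16, beside 5601 and 4369 of all 30301 transcripts. The main transcript of PSMD2, with 99.4% of the gene's counts, changed by 0.53 on the log2 scale (adjusted p = 0.0601), and that of PSMD6, with 74.5% of the counts, had 0.76 (adjusted p = 0.151).

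Several of the members that passed sat in stretches of the genome where neighbouring genes went the same way. On chromosome 3, home to PSMD2, PSMD6 and PSMD6-AS2, 48.3% of 833 tested genes were upregulated and the median log2 fold change was 0.43. On the X chromosome, home to PSMD10, 36.3% of 471 genes were downregulated and the median was -0.29. Chromosomes 15 (PSMA4) and 2 (PSMD1, PSMD14 and PSME4) had medians of 0.24 and 0.12, with 27.3% and 24.9% of their tested genes upregulated.

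The 20 nearest tested neighbours gave a closer view. Around PSMD2 11 of 20 neighbours were upregulated and their median log2 fold change was 0.30, and around PSMD6 6 were, with a median of 0.35. Both genes thus exceeded their neighbours' medians, by 0.24 and 0.33. PSME4 (0.41) and PSMD10 (-0.40) had values like those of their neighbours, whose medians were 0.42 and -0.45. The same held for PSME1 and PSME2, each of which is a neighbour of the other, with medians of -0.29 and -0.28, and for PSMA4 and PSMB6, with medians of 0.22 and -0.19. PSMA3, PSMC3 and PSMD12 went against neighbours with medians of -0.16, 0.09 and -0.13.

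The sign of the neighbours' median was that of the gene in 13 of the 16 genes that passed (81%) and in 25 of the 35 that did not (71%). A shared sign was thus common among the members that did not pass as well. The share over all tested genes was not computed, so no excess can be read from these counts. PSMA3 and PSMA3-AS1, like PSME1 and PSME2, counted among each other's neighbours. Of the 7 proteasome protein genes on chromosomes 2, 3, 15 and X, a grouping made after the values were seen, 5 were upregulated and 1 was downregulated. Of the 39 on the other chromosomes, 3 were upregulated and 5 downregulated, and their median log2 fold change was -0.07. That is 20.5% passing, where 28.4% of all genes on any chromosome passed. As the grouping was chosen from these values, the contrast between its parts is no test of the neighbourhood. Copies of chromosomes 2, 3, 15 and X were not measured, and the part of the neighbourhood in the genes' differences was not tested.

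Genes that act with the proteasome were looked at in 4 lists, in which 21 genes passed in all, and 9 and 7 without PZT-2 replicate 1 or 2. Of 14 proteasome-associated genes none passed with edgeR, 8 had an unadjusted p under 0.05 and DESeq2 called none. Of all 15100 genes, 28.4% passed with edgeR, 6128 had an unadjusted p under 0.05 and DESeq2 called 3224. The median log2 fold change of the list was 0.14 against 0.00 for all genes. POMP, which matures the core particle, had 990.5 and 1092 normalized counts in PANC-1 and 1204 and 1209 in PZT-2 (0.21, adjusted p = 0.0699). ADRM1, a ubiquitin receptor of the regulatory particle, had 4030.5 and 3973 against 3368 and 3679.7 (-0.18, adjusted p = 0.0699). SEM1, the smallest lid subunit, had 582 and 653 against 687 and 665 (0.13, adjusted p = 0.308).

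The transcription factor NFE2L1 raises proteasome genes when proteasome activity is short, and it works as a dimer with a small MAF protein. A list of 11 genes was taken for its pathway, and it also held NFE2L2 and KEAP1, which act in the oxidative stress response. Of these 11 genes 4 were upregulated and 3 downregulated (63.6% against 28.4% of all genes), with a median log2 fold change of 0.21. NFE2L1 itself had 8155 and 6772 normalized counts in PANC-1 and 8748 and 8538 in PZT-2 and did not pass (0.21, adjusted p = 0.120). All 3 small MAF genes were upregulated, MAFF 1.76-fold, MAFG 1.35-fold and MAFK 1.46-fold, and so was NGLY1 on chromosome 3, which encodes the deglycosylase that activates NFE2L1 (1.59-fold). NFE2L2, its relative in the oxidative stress response, fell 1.28-fold, KEAP1, the adaptor that marks NFE2L2 for degradation, 1.27-fold and SEL1L, of degradation at the endoplasmic reticulum, 1.22-fold.

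Of 14 ubiquitin and shuttle genes 3 rose and 3 fell past the threshold (42.9% against 28.4% of all genes), with a median log2 fold change of 0.05. The genes that encode ubiquitin went apart, as RPS27A rose 1.20-fold and UBB fell 1.18-fold. The main ubiquitin-activating enzyme gene UBA1, on the X chromosome, fell 1.17-fold, and the shuttle genes UBQLN1 and UBQLN4 rose 1.22-fold and 1.20-fold.

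Of 18 interferon signalling and peptide loading genes 6 were upregulated and 2 downregulated (44.4% against 28.4% of all genes), with a median log2 fold change of -0.01. The receptor genes IFNGR1, IFNGR2 and IFNAR2 rose 1.49-fold, 1.32-fold and 1.38-fold and the kinase gene JAK1 1.18-fold. B2M, the light chain of MHC class I and a gene on chromosome 15, rose 1.70-fold. The peptide-trimming genes ERAP1 and ERAP2, both on chromosome 5, fell 1.45-fold and 1.67-fold. IRF1, the transcription factor for the immunoproteasome genes, had 1077 and 880.3 against 883 and 900.4 normalized counts (log2 fold change -0.13, adjusted p = 0.396), and the peptide transporter gene TAP1 had 2278 and 2029 against 1980.2 and 2129 (-0.07, adjusted p = 0.571). The libraries of both overlapped, as those of PSMB8 did.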

How the data were processed

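RNA was sequenced in 4 libraries, 2 of PANC-1 and 2 of PZT-2. Reads were trimmed by the authors (Trim Galore 0.4.1) and assigned to RefSeq transcripts with kallisto 0.43.0. The release of that index is not given in the sources used here, and the submitters' notes name hg19. The table the authors deposited holds the estimated count, TPM and effective length that kallisto gave each transcript in each library. Another deposited table pairs transcripts with symbols and holds the authors' sleuth 0.29.0 test results (effects, p-values and q-values), which were not used apart from the symbols.

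The estimated counts carried a factor per library (1.16, 0.935, 1.03 and 1.01 for PANC-1 replicates 1 and 2 and PZT-2 replicates 1 and 2), which was undone before rounding. After that, 49.3 to 50.1% of values between 0.5 and 30 lay within 0.01 of a whole number, against 0.635 to 2.71% as deposited. Transcripts were assigned to genes by symbol (27049) or by accession (3925), and 103 with 0.0466% of the counts stayed unnamed. Of the members' 108 transcripts, 102 were assigned by symbol and 6 by accession.

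Summed counts were tested with edgeR 4.0.16 in R 4.3.3 (TMM factors, quasi-likelihood test, legacy dispersion, no covariate), adjusted over 15100 genes or 30301 transcripts with at least 5 counts in at least 2 libraries. limma 3.58.1, on log2(TPM + 1) and log2(TPM + 0.1), and DESeq2 1.42.0 served as alternatives. Fold changes are PZT-2 over PANC-1, errors are the SE of the fit or the SD over 2 libraries, and totals were 12856547 to 15713289 counts, with a spread between replicates beyond counting error.

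Chromosomes, neighbours (10 tested genes on each side, members included) and promoters are from RefSeq on GRCh38.p14. Whether libraries with the same replicate number shared a preparation is not given in the sources used here. The replicate differences of the cell lines correlated at -0.02 over genes, which cannot decide this. The main test did not pair them. The members and gene lists were chosen with earlier results of these data known. Named with values were the members that passed, the catalytic and immunoproteasome genes, PSME1 and PSME2, members on chromosomes 3 and X, the highest and lowest genes of each particle, and, in the other lists, the genes that passed and a few fixed genes. Results for some genes of these lists are not reported here. SUPT5H, FBL, RPS16, AKT2 and TIMM50, PSMA1 and PSMC3IP were named after their values were seen.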

Additional observations from a re-analysis of the deposited data

How the results depend on the processing

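Of the 16 members called, PSMD2 and PSMD6 passed under all 16 alternatives run for genes, PSMD10 under 15, and the others under 7 to 13. For 27 named genes and these alternatives, 348 of 431 values kept their direction and side of the threshold, 70 were no longer past it, 8 were newly past it and 5 changed sign. Those 5 were PSMG3-AS1 by its most abundant transcript (0.12) and, with 1 library left out, PSMA7, PSMB1 in 2 cases and PSMD6-AS2, whose log2 fold changes then ranged from -0.079 to 0.020, from -0.023 to 0.037 and from -0.032 to 0.487. Members called ranged from 3 to 19 with 1 library left out, with 2 to 9 of them higher and 0 to 10 lower, and the related lists' calls from 7 to 27. Both low ends came without a PZT-2 library, when calls over all genes fell as well, to 2431 and 2004 of 14830 and 14834. The most abundant transcript alone gave 3 members (2 higher, 1 lower; PSMD2, PSMD6 and PSMD10) and 10 list genes, beside 2134 calls over all genes. DESeq2 called 5 members lower and limma 3 higher with either pseudocount. The fit with a replicate block, for numbers not known to pair the samples, called 10 members (7 higher, 3 lower) and changed the count of list genes from 21 to 20. Transcripts called were 16 by DESeq2, 2 with at least 10 counts in all libraries, 1 by limma on log2(TPM + 1) and 1 with the version 4 dispersion. Median log2 fold changes with 1 library left out ranged from -0.123 to -0.046 for the core particle, from -0.264 to -0.090 for the immunoproteasome and from -0.0014 to 0.101 for the regulatory particle. One alternative, added after the data were seen, used transcripts with a symbol in the table alone and called 14 members, as did leaving out the genes taken by name alone. The design has 2 libraries a line and 1 clone, so the spread between clones is unknown, and values of genes with few counts, such as PSMD6-AS2 with 6 to 8, are set by depth.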
